A study of Homo sapiens with 6 samples.

Results

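The urea cycle and glutamate enzymes described here are 9 genes of the 20030 in the deposited count table, chosen by symbol for their known function. The choice was made with earlier results of these data known. They are the 5 steps that turn ammonia into urea (CPS1, OTC, ASS1, ASL and the arginase isoenzymes ARG1 and ARG2), the enzyme that makes the activator of the first step (NAGS), and a pair of mitochondrial enzymes that release ammonia from glutamine and glutamate (GLS2 and GLUD1). All 9 were found in the table and 7 had enough counts to be tested. The study knocked down KIF11, a mitotic kinesin motor, in HepG2 cells to ask what the loss of this motor does to hepatoma cells. HepG2 is a human hepatoma cell line with much of the gene expression of hepatocytes. Cells with a control shRNA (sh-ctrl, 3 libraries) were compared with cells with an shRNA against KIF11 (sh-KIF11, 3 libraries). Both shRNAs were delivered by lentivirus in the pLKO.1 vector and infected cells were selected with puromycin, so the controls had been infected and selected too. The knockdown libraries are labelled with a single shRNA treatment, so an effect of that hairpin on other genes cannot be told apart from the loss of KIF11. Nothing in the labels says that the libraries of a group came from separate cultures, so p-values measure the spread between these libraries, which may be technical.

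Ammonia is toxic, and the liver removes it by building it into urea. CPS1 joins ammonia and bicarbonate to carbamoyl phosphate inside mitochondria, OTC passes this to ornithine to give citrulline, ASS1 and ASL then convert citrulline to arginine with the nitrogen of aspartate, and arginase splits arginine into urea and ornithine. ARG1 is the cytosolic arginase of liver, while ARG2 is the mitochondrial form found in many tissues. NAGS makes N-acetylglutamate, without which CPS1 is inactive. GLS2 is the liver-type glutaminase, and GLUD1 interconverts glutamate with ammonia and 2-oxoglutarate.

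KIF11 was first checked as the targeted gene. The sh-ctrl libraries had 111, 116 and 121 CPM of it and the sh-KIF11 libraries 72.2, 71.4 and 62.9 CPM. CPM are counts relative to the depth of a library, here scaled with TMM factors, which set the bulk of genes at equal level. The level of KIF11 was 1.68-fold lower in sh-KIF11 (log2 fold change -0.75 ± 0.057 SE; edgeR quasi-likelihood test, Benjamini-Hochberg adjusted p = 4.22e-15). The libraries held between 18167773 and 19583282 counts, and 3 counts, the most that a count of 0 allows, were worth 0.145 to 0.178 CPM, which covers counting error only. Of 12369 genes tested, 69.1% had an adjusted p under 0.05, 34.4% higher and 34.7% lower in sh-KIF11, so a change in a single gene was common in these data. Of 15 tested hepatocyte markers 13 were lower and none was higher (12 and 1 by library totals), their summed level being 33150 to 34790 CPM in sh-ctrl and 14740 to 15950 CPM in sh-KIF11. All 6 libraries were labelled as the HepG2 line. In bulk RNA of a line, fewer cells that express a gene and less of its RNA per cell cannot be told apart. Markers of stellate cells and fibroblasts summed to at most 3.88 CPM in any library and those of endothelial cells to at most 4.98 CPM, with DCN at 0 counts in all 6. The leukocyte list (78.9 to 90.1 CPM in sh-ctrl, 45.6 to 49.9 CPM in sh-KIF11) was mostly CD68, while PTPRC had at most 1 count per library. Of the 4 genes of the cholangiocyte list 2 were tested, of which KRT19 was higher in sh-KIF11 (131 CPM against 663 CPM) and SOX9 lower (233 CPM against 158 CPM), while CFTR had at most 2 counts. Their part in the results was not tested.

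The sequences just before the start sites are shown first, so that the members with almost no counts can be set beside those with many. Each is the stretch of 250 bases before an annotated start of the gene, from RefSeq on GRCh38.p14, read 5′ to 3′ on the strand of the gene. Capitals mark the motifs searched on both strands, namely the TATA box (TATAAA), the CCAAT box (CCAAT), the Sp1 GC box (GGGCGG), the E-box (CACGTG), the nuclear receptor half-site (AGGTCA), the C/EBP motif (TTGCNNAA) and the CRE half-site (TGACG). ARG1 and OTC are the members with almost no counts, CPS1 rose, and ASS1, ARG2 and GLUD1 fell the most.
ARG1, chr6:131572976-131573225, plus strand: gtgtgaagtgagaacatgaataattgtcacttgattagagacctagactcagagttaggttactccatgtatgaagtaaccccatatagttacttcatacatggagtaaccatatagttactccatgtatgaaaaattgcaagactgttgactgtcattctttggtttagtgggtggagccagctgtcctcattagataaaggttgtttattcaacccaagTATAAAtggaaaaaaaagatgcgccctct
OTC, chrX:38352354-38352603, plus strand: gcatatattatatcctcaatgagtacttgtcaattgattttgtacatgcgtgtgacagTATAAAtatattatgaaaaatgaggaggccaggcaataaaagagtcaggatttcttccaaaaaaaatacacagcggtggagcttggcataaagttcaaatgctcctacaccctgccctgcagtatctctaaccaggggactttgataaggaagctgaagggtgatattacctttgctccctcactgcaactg
CPS1, chr2:210477435-210477684, plus strand: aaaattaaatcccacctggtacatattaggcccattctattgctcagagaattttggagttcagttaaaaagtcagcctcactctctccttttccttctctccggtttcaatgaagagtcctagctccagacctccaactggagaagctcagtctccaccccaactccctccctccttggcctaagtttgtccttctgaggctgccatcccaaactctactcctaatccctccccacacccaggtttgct
ASS1, chr9:130444457-130444706, plus strand: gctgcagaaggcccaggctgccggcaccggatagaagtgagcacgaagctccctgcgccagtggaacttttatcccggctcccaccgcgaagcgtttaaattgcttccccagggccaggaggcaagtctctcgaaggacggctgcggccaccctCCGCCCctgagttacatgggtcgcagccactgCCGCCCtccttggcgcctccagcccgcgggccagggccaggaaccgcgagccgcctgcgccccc
ARG2, chr14:67619670-67619919, plus strand: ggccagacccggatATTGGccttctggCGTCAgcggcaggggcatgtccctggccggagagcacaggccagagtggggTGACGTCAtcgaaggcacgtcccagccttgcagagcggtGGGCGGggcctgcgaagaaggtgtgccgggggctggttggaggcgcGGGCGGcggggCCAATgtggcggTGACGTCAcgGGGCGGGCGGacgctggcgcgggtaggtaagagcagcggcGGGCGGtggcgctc
GLUD1, chr10:87094844-87095093, minus strand: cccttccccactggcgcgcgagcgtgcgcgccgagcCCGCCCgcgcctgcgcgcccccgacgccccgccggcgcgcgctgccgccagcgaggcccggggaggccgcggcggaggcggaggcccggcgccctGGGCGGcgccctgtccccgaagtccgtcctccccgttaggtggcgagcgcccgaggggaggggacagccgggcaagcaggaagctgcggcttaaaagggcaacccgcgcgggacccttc
Of the bases shown, 37.6% in ARG1 and 40.4% in OTC were G or C, against 68.4% in ASS1, 72.4% in ARG2 and 80.4% in GLUD1. Over 35116 promoters of the same length the median was 58.0%, with quartiles of 46.4% and 68.0%. ARG1 and OTC each held 1 TATA box, which began 29 bases before the start in ARG1 and 192 bases before it in OTC, and 10.7% of all promoters held one. The Sp1 GC box, found in 42.6% of all promoters, occurred 2 times before ASS1, 2 times before GLUD1 and 5 times before ARG2, where a pair of them overlapped. ARG2 also held CCAAT boxes (32.0% of all promoters) and 5 matches of the CRE half-site (21.2% of all promoters), of which 4 came from both strands of a palindrome that occurred 2 times. CPS1 had 3 annotated starts, of which the first is shown, and none of them held an Sp1 GC box. The G and C content before these starts ranged from 33.6% to 48.4%, and gene counts do not tell the starts apart. Of the other windows not printed, 74.0% of the bases before ASL, 65.6% before NAGS, 66.4% before GLS2 and 78.8% before a further start of ASS1 were G or C. Each of these 4 windows held the Sp1 GC box, and no member's window held the nuclear receptor half-site or the C/EBP motif, which 12.1% and 9.05% of all promoters held. The E-box, found in 6.34% of all promoters, occurred before the further start of ASS1 and before the second start of CPS1.

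Of the 7 members tested, 4 were lower in sh-KIF11 (ASS1, ARG2, GLUD1 and ASL), 2 were higher (CPS1 and GLS2) and NAGS did not pass the test. That is 6 of 7 called against 69.1% of all tested genes, 4 of 7 lower against 34.7%, and 2 of 7 higher against 34.4%. Since the members were chosen with earlier results of these data known, these shares are only a description. The libraries of both groups did not overlap for the same 6 members, as for 71.2% of all tested genes. The median log2 fold change over the 7 tested members was -0.47, against 0.00 over all tested genes. When libraries were scaled to their totals alone, the median of all tested genes moved from 0.00 to 0.24 and that of the members from -0.47 to -0.24. The calls among all genes then turned to 53.5% higher and 19.2% lower, while the members again had 2 higher and 4 lower. Their calls were therefore read relative to the bulk of genes, and NAGS was the only tested member whose sign depended on the scaling. An exact permutation test over the 6 libraries could not go below p = 0.1, and it gave 0.1 for each of the 6 called members and 0.4 for NAGS.

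**Figure D1:**
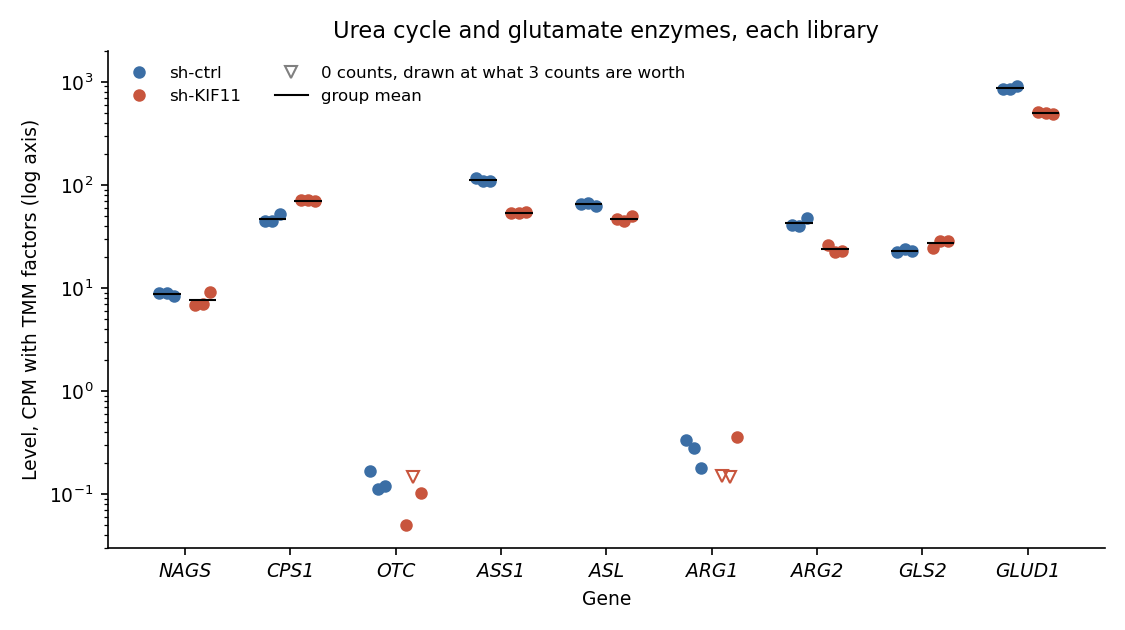
The level of each of the 9 enzymes in every library, in CPM with TMM factors on a log axis, with sh-ctrl in blue and sh-KIF11 in red. Lines are group means, and open triangles are libraries with 0 counts, drawn at what 3 counts are worth. The libraries of the groups stood apart for CPS1, ASS1, ASL, ARG2, GLS2 and GLUD1, while those of NAGS overlapped and OTC and ARG1 lay below 0.4 CPM throughout.

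RNA of the first step of the cycle rose. CPS1 (chr2:210477682-210679107, GRCh38, plus strand) is the entry enzyme of the cycle. It was counted at 44.2, 45.0 and 51.7 CPM in the sh-ctrl libraries and at 70.5, 70.5 and 70.0 CPM in the sh-KIF11 libraries. All 3 sh-KIF11 libraries were above the highest control, and they were closer to each other than the controls were. The level was 1.498-fold higher in sh-KIF11 (log2 fold change 0.58 ± 0.064 SE; edgeR quasi-likelihood test, Benjamini-Hochberg adjusted p = 1.5e-10). A second transcript, CPS1-IT1, is annotated within the gene on the same strand.

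NAGS (chr17:44004546-44009063, plus strand), which supplies the activator of CPS1, did not pass the test. Its level was 8.92, 8.92 and 8.35 CPM in sh-ctrl and 6.88, 7.005 and 9.18 CPM in sh-KIF11. The sh-KIF11 libraries lay on both sides of the controls, since replicate 3 was above all of them and the other two were below. The log2 fold change was -0.19 ± 0.13 SE (edgeR quasi-likelihood test, Benjamini-Hochberg adjusted p = 0.201). Without sh-KIF11 replicate 3 it was -0.33 with an adjusted p of 0.0403 in the same test, and scaling to library totals turned its sign (0.05, adjusted p = 0.765).

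RNA of the cycle enzymes ASS1 and ASL fell. ASS1 (chr9:130444929-130501274, plus strand) condenses citrulline with aspartate and was the member with the largest fold change. Its level was 116, 109 and 110 CPM in sh-ctrl and 53.1, 52.8 and 54.1 CPM in sh-KIF11. The groups were far apart, and the spread within each was small. The level was 2.09-fold lower in sh-KIF11 (log2 fold change -1.07 ± 0.056 SE; edgeR quasi-likelihood test, Benjamini-Hochberg adjusted p = 1.81e-20). Of all tested genes, 10.5% had a larger absolute log2 fold change, and the median absolute value was 0.333. The annotation names 11 pseudogenes of ASS1, but no stretch of 150 bases of its transcript was found in another annotated transcript.

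ASL (chr7:66075798-66093558, plus strand) splits argininosuccinate into arginine and fumarate. It was at 65.2, 66.8 and 62.0 CPM in sh-ctrl and at 46.6, 44.1 and 49.6 CPM in sh-KIF11, with no overlap. It was 1.38-fold lower (log2 fold change -0.47 ± 0.064 SE; edgeR quasi-likelihood test, Benjamini-Hochberg adjusted p = 2.85e-08). ASS1, the enzyme just before it, had the larger fold change, and the difference between them was not tested. An overlapping readthrough gene, AC068533.4, shared 20.8% of its windows of 150 bases, so the count of ASL is less certain than that of ASS1.

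Nearly all arginase RNA was that of ARG2 in both groups. ARG1 (chr6:131573144-131584332, plus strand), the liver arginase, was counted 6, 5 and 3 times in the controls and 0, 0 and 7 times after KIF11 knockdown. The highest count came from a sh-KIF11 library and the other two of that group had none, so no direction can be read at this depth. ARG1 overlaps MED23 on the opposite strand, which had 767 to 820 counts in sh-ctrl and 1142 to 1297 in sh-KIF11. The library kit marks strand, but whether the counting used it is not given in the sources used here.

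ARG2 (chr14:67619798-67651720, plus strand), the mitochondrial arginase, was at 41.0, 40.1 and 48.0 CPM in sh-ctrl. In sh-KIF11 it was at 26.3, 22.2 and 22.6 CPM, below every control. The level was 1.81-fold lower (log2 fold change -0.86 ± 0.082 SE; edgeR quasi-likelihood test, Benjamini-Hochberg adjusted p = 2.6e-12). VTI1B overlaps ARG2 on the opposite strand.

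OTC (chrX:38352545-38421450, plus strand), the citrulline-forming step between CPS1 and ASS1, was all but absent. Its counts were 3, 2 and 2 in the controls and 1, 0 and 2 after KIF11 knockdown. All 6 values lay at or under 3 counts, so no fold change is given. In the fit without a filter on low counts neither ARG1 nor OTC was among the 6 members called. These libraries therefore held RNA of CPS1, ASS1, ASL and ARG2 at measurable levels and almost none of OTC and ARG1.

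RNA levels of the glutamate enzymes moved in opposite directions. GLUD1 (chr10:87050486-87094866, minus strand), glutamate dehydrogenase, was at 843, 851 and 918 CPM in sh-ctrl and at 506, 493 and 491 CPM in sh-KIF11. Every sh-KIF11 library was below every control. The level was 1.75-fold lower (log2 fold change -0.81 ± 0.048 SE; edgeR quasi-likelihood test, Benjamini-Hochberg adjusted p = 1.58e-18). Of its windows of 150 bases 7.82% were shared with GLUD2, an X-linked copy without introns, and the annotation names 5 pseudogenes. GLUD2 had at most 24 counts in a library, against at least 9688 for GLUD1, and its own log2 fold change of -1.07 ± 0.39 SE (edgeR quasi-likelihood test, Benjamini-Hochberg adjusted p = 0.0137) may include reads of GLUD1.

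GLS2 (chr12:56470944-56488414, minus strand), liver-type glutaminase, was at 22.3, 23.8 and 22.9 CPM in sh-ctrl and at 24.4, 28.4 and 28.3 CPM in sh-KIF11. The groups did not overlap, but sh-KIF11 replicate 1 was only just above the highest control. The level was 1.18-fold higher (log2 fold change 0.23 ± 0.082 SE; edgeR quasi-likelihood test, Benjamini-Hochberg adjusted p = 0.0106). This was the smallest change called among the members, and the call was lost without sh-KIF11 replicate 2 (0.20, adjusted p = 0.0648) and without sh-KIF11 replicate 3 (0.20, adjusted p = 0.0571). A readthrough gene, AC097104.1, shared 3.48% of its windows, and SPRYD4 overlaps it on the opposite strand.

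Levels of different genes were compared per length, in FPKM (fragments relative to transcript length and library size), as the authors computed them. In sh-ctrl the order of mean FPKM was GLUD1 (203 ± 7.65, SD, n = 3), ASS1 (30.2 ± 1.16), ARG2 (19.3 ± 1.79), ASL (17.6 ± 0.648), CPS1 (5.71 ± 0.475), GLS2 (5.002 ± 0.104) and NAGS (2.81 ± 0.204). ARG2 and ASL overlapped, and each other neighbour in this order was apart in all 3 libraries. OTC and ARG1 came last, at or below 0.0939 FPKM in every sh-ctrl library, and overlapped each other. In sh-KIF11 the order became GLUD1 (131 ± 0.777), ASS1 (16.2 ± 0.242), ASL (14.8 ± 1.005), ARG2 (11.8 ± 1.06), CPS1 (9.47 ± 0.119), GLS2 (6.61 ± 0.618) and NAGS (3.01 ± 0.497), with these 7 apart from their neighbours throughout. ASL thus stood above ARG2, and ASS1 exceeded ASL by only 1.09 times.

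CPS1 made up a larger part of the urea cycle transcripts in the sh-KIF11 libraries. Among the summed FPKM of CPS1, OTC, ASS1, ASL, ARG1 and ARG2, CPS1 made up 7.51%, 7.60% and 8.38% of the sum in the controls and 17.6%, 18.9% and 17.8% of it after KIF11 knockdown. The share of ASS1 was 42.9%, 41.1% and 40.2% in the controls and 30.3%, 31.8% and 30.8% after KIF11 knockdown. ASL took a larger share in sh-KIF11 (28.3% ± 1.33, SD, n = 3) than in sh-ctrl (24.1% ± 1.504), although its own level fell, and ARG2 a smaller one (22.5% ± 1.85 against 26.5% ± 1.85). For each of these 4 genes the groups did not overlap, which gave the smallest p of the exact permutation test, 0.1. The summed level of the 6 genes was 72.9 ± 1.92 FPKM in sh-ctrl and 52.4 ± 1.51 FPKM in sh-KIF11. OTC and ARG1 together stayed under 1% of the sum in each library.

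**Figure D2:**
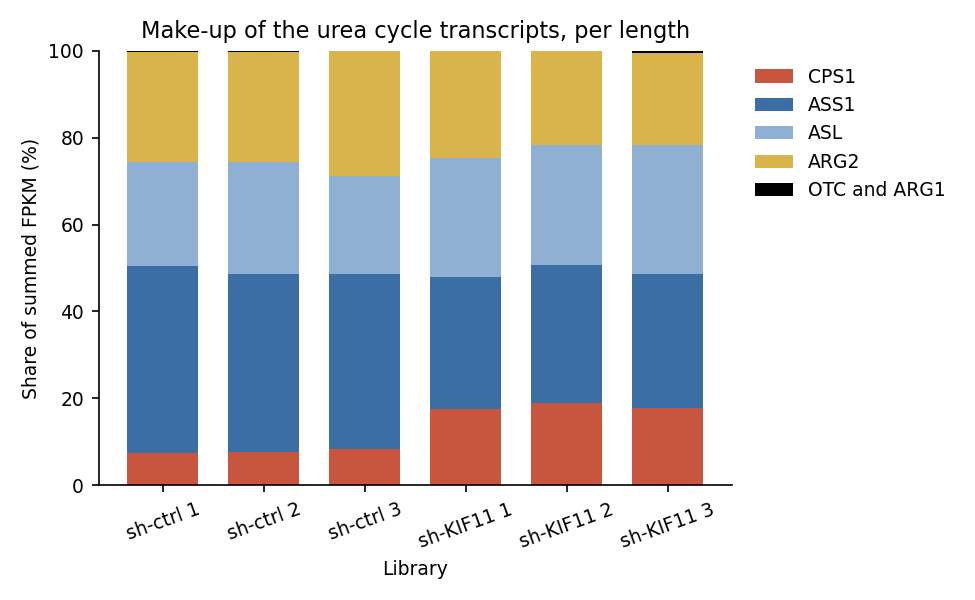
The share of each urea cycle enzyme in the summed FPKM of the 6 cycle genes, in percent, stacked for each library. The CPS1 part was 7.51 to 8.38% in sh-ctrl and 17.6 to 18.9% in sh-KIF11, the ASS1 part was at least 40.2% in sh-ctrl and at most 31.8% in sh-KIF11, and OTC with ARG1 was a barely visible line.

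Each enzyme was then set against a partner within the same library, where scaling cancels, as the log2 ratio of counts after adding 0.5. The tests were adjusted over 5 pairs, of which 4 are given, and with 3 libraries a group the exact two-sided permutation test could not go below 0.1. CPS1 was set against CAD, which holds the carbamoyl phosphate synthetase of pyrimidine synthesis. The log2 ratio was -1.75, -1.67 and -1.31 in the controls and -1.10, -0.97 and -0.96 after KIF11 knockdown. The groups did not overlap and differed by 0.57 (exact permutation test, p = 0.1, adjusted over the 5 pairs 0.167). CAD itself was at 140 ± 10.7 CPM (SD, n = 3) in control libraries and 142 ± 7.85 CPM after knockdown and did not pass the test (edgeR quasi-likelihood test, Benjamini-Hochberg adjusted p = 0.816), though it was called higher when libraries were scaled to their totals (0.25, adjusted p = 0.00011).

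NAGS was lower relative to CPS1 in the sh-KIF11 libraries. The log2 ratio of NAGS to CPS1 was -2.31, -2.33 and -2.63 in the controls and -3.35, -3.33 and -2.93 after KIF11 knockdown. All sh-KIF11 libraries were below the controls, with a difference of -0.78 (exact permutation test, p = 0.1, adjusted 0.167).

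GLS2 makes glutamate from glutamine, and GLUL, glutamine synthetase, runs the opposite reaction. The log2 ratio of GLS2 to GLUL was -3.92, -3.90 and -3.85 in the controls and -2.81, -2.61 and -2.60 after KIF11 knockdown. This was the widest separation among the pairs without overlap, a difference of 1.22 (exact permutation test, p = 0.1, adjusted 0.167). GLUL itself was 1.98-fold lower in sh-KIF11, from 341 ± 12.9 CPM to 172 ± 1.36 CPM (SD, n = 3; edgeR quasi-likelihood test, Benjamini-Hochberg adjusted p = 3.16e-21).

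The ratio of ARG2 to ARG1 rested on at most 7 counts of ARG1. It was 6.81, 7.04 and 7.86 in the controls and 10.05, 9.85 and 5.90 after KIF11 knockdown, with overlap (exact permutation test, p = 0.4).

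**Figure D3:**
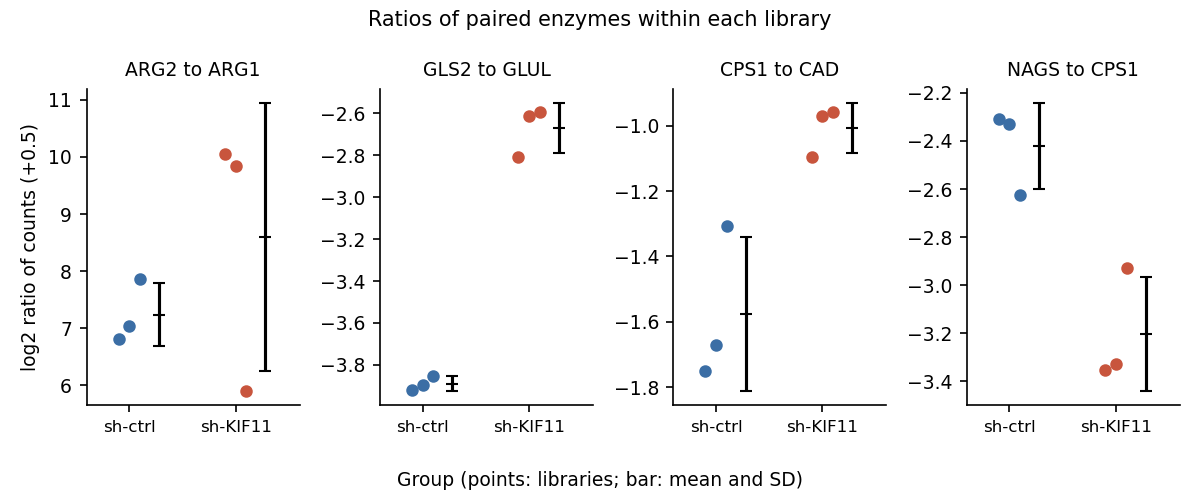
The log2 ratio of counts of 4 pairs of enzymes, 1 panel a pair with its own vertical axis, points being libraries and bars the mean and SD of a group. GLS2 to GLUL and CPS1 to CAD were higher in all 3 sh-KIF11 libraries and NAGS to CPS1 lower, whereas ARG2 to ARG1 overlapped.

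The genes around the cycle were taken from 6 lists by function, which were also chosen with earlier results of these data known. Of 69 tested genes 43 were lower, 12 higher and 14 not called, so 79.7% were called against 69.1% of all tested genes, and their median log2 fold change was -0.36. With libraries scaled to their totals 34 were lower and 24 higher, and the median was -0.13 against 0.24 over all genes. The counts of each list below stand against 34.7% lower and 34.4% higher over all tested genes, or 19.2% and 53.5% by library totals. The called share was near that of all genes for glutamine, glutamate and aspartate (68.4%), proline and ornithine (71.4%) and polyamine genes (69.2%). It was 90.9% to 100% in the other lists. For the carriers and helpers of the urea cycle 7 of 11 were lower, 3 higher and 1 not called, with a median log2 fold change of -0.28. By library totals 4 were lower and 3 higher, with a median of -0.05. CA5A, a mitochondrial carbonic anhydrase that supplies bicarbonate to CPS1, was 2.40-fold lower, from 24.2 ± 1.14 CPM to 10.1 ± 0.501 CPM (SD, n = 3; edgeR quasi-likelihood test, Benjamini-Hochberg adjusted p = 1.24e-15). It thus moved against CPS1. CA5B, the other mitochondrial carbonic anhydrase, was lower in level and moved with CPS1, from 1.97 CPM to 2.96 CPM (adjusted p = 0.0227 in the same test). The carriers SLC25A15, which exchanges ornithine and citrulline, and SLC25A13, which exports aspartate from mitochondria, had log2 fold changes of -0.28 and -0.53 (adjusted p = 6.79e-05 and 6.82e-12 in the same test), and were picked from the list after their values were seen. Carriers of the list did not all fall. SLC25A12, the other aspartate carrier, and SLC7A2 were higher, with log2 fold changes of 0.77 and 0.15 (adjusted p = 3.76e-05 and 0.0134 in the same test).

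Among 19 tested genes of glutamine, glutamate and aspartate metabolism 10 were lower and 3 higher. By library totals the split was 8 lower and 9 higher, so the list had no direction that held under both scalings. GPT, an alanine aminotransferase, was low in both groups and 2.46-fold lower in sh-KIF11, from 2.53 CPM to 1.02 CPM. SLC38A5, a glutamine transporter, was 2.19-fold lower, from 52.5 ± 5.46 CPM to 24.04 ± 1.65 CPM (SD, n = 3). Both passed the edgeR quasi-likelihood test (Benjamini-Hochberg adjusted p = 7.48e-05 and 3.22e-16). GPT2, the other alanine aminotransferase, was far higher in level and 1.62-fold lower, from 382.5 CPM to 235.5 CPM (adjusted p = 2.62e-16 in the same test).

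Of 7 tested genes that link glutamate with proline and ornithine 5 were lower and none higher, and by library totals 5 were lower and 2 higher. OAT, which moves ornithine out of the cycle into glutamate and proline, was at 73.5, 78.6 and 96.5 CPM in sh-ctrl and at 51.2, 48.8 and 51.0 CPM in sh-KIF11. It was 1.64-fold lower without overlap (edgeR quasi-likelihood test, Benjamini-Hochberg adjusted p = 4.58e-12). PRODH2, an enzyme of hydroxyproline breakdown, was 2.88-fold lower (adjusted p = 7.17e-18 in the same test).

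The 13 tested genes of polyamine metabolism, which draws on ornithine through ODC1, had 7 lower, 2 higher and 4 not called, and by library totals 5 lower and 5 higher. Of 5 tested genes on other fates of arginine, 4 were lower and 1 higher under both scalings. The higher one was NOS3, the endothelial nitric oxide synthase, which competes with arginase for arginine. It was at 12.2, 10.8 and 11.5 CPM in sh-ctrl and at 43.3, 46.8 and 47.6 CPM in sh-KIF11. It was 3.99-fold higher (edgeR quasi-likelihood test, Benjamini-Hochberg adjusted p = 1.14e-23). Of the 4 endothelial markers VWF was also higher (1.58 CPM against 3.17 CPM, adjusted p = 0.000342 in the same test), PECAM1 did not pass the test (1.76 CPM against 1.67 CPM), and CDH5 and STAB2 had at most 2 counts in a library. Their part in the result was not tested. GATM, the first enzyme of creatine synthesis, was low in both groups and 2.11-fold lower in sh-KIF11 (adjusted p = 0.00356 in the same test), with overlapping libraries.

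Of 14 tested regulators of liver metabolism (HNF4A also stood among the hepatocyte markers) 10 were lower and 3 higher, and by library totals 8 were lower and 4 higher. KLF15, a factor that drives amino acid breakdown in fasting, was 4.34-fold lower, from 2.17 ± 0.413 CPM to 0.497 ± 0.174 CPM (SD, n = 3; edgeR quasi-likelihood test, Benjamini-Hochberg adjusted p = 4.48e-07). NR1H4, the bile acid receptor FXR, was 2.74-fold lower and PPARGC1A, a coactivator of fasting genes, 2.31-fold lower (adjusted p = 7.57e-21 and 1.48e-15 in the same test). These 3 kept their direction under each scaling and with each library left out. NR3C1, the glucocorticoid receptor, was picked after its value was seen. It was 1.96-fold higher, from 32.7 ± 1.25 CPM to 64.1 ± 3.86 CPM (adjusted p = 3.87e-16 in the same test).

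**Figure D4:**
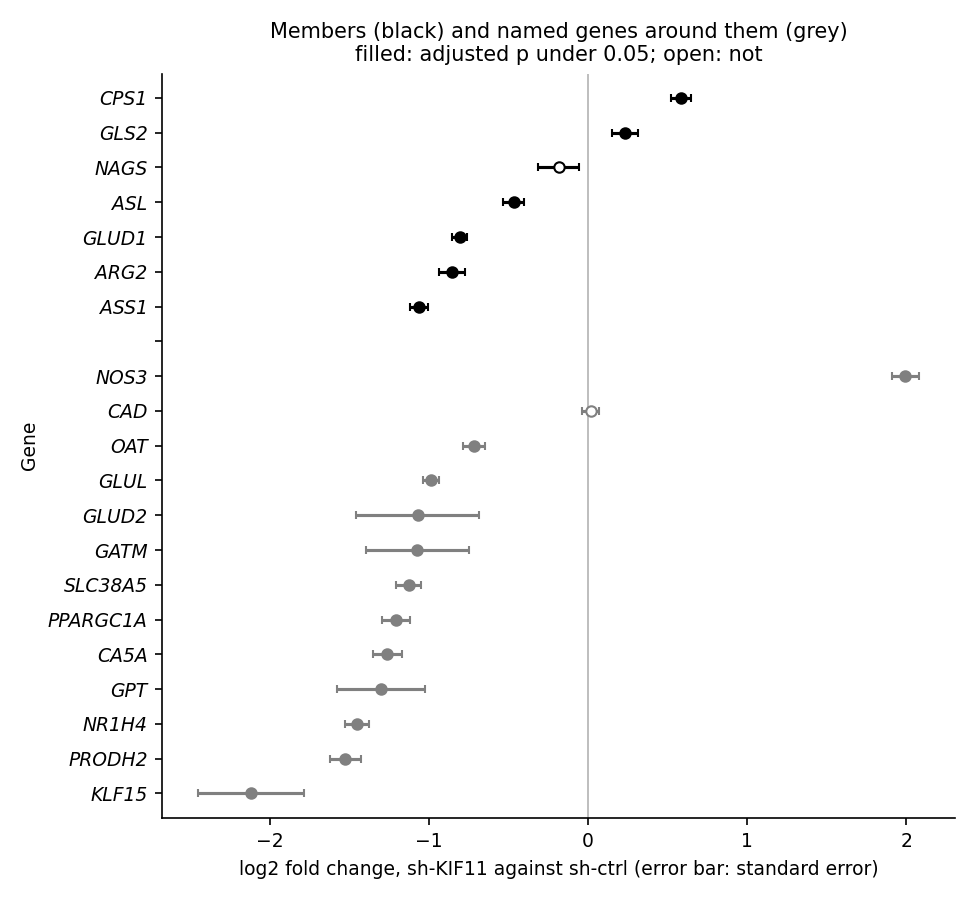
The log2 fold change of sh-KIF11 against sh-ctrl with its standard error for the 7 tested members (black) and for 13 named genes around them (grey), filled where the adjusted p was under 0.05. CPS1 and GLS2 lay to the right of 0 and ASL, GLUD1, ARG2 and ASS1 to the left, while NAGS and CAD were open, and NOS3 was the only named gene around them above 1.

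The deposited table also carried pathway names. Its term for arginine biosynthesis held 21 genes, all 9 members included. Without the members, 9 of the other 12 were tested, of which 6 were lower and 2 higher, with a median log2 fold change of -0.39. By library totals 5 were lower and 2 higher, with a median of -0.16. Apart from ACY1, which was not called, these tested genes also stood in the functional lists, so the counts are not a separate result. For ACY1 the counts and the FPKM values did not match, so its call is uncertain. It was at 0.858 CPM in sh-ctrl and 0.775 CPM in sh-KIF11, but at 49.11 ± 2.35 FPKM and 38.65 ± 1.52 FPKM (SD, n = 3). The source of this mismatch was not tested. The term for alanine, aspartate and glutamate metabolism had 23 tested genes besides the members, many of them also in the functional lists. Of these, 69.6% were called, 12 lower and 4 higher, or 10 lower and 9 higher by library totals. AGXT, the liver enzyme that moves an amino group from alanine to glyoxylate, belonged to this second term and was named after its value was seen. It was at 42.8, 42.9 and 38.5 CPM in sh-ctrl and at 6.83, 5.36 and 5.17 CPM in sh-KIF11, 7.16-fold lower (edgeR quasi-likelihood test, Benjamini-Hochberg adjusted p = 1.38e-26).

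The genes whose log2 CPM over the 6 libraries lay closest to that of ASS1 were MANF, MVK and MAT1A, with Pearson correlations of 0.9997, 0.9997 and 0.9994. MANF is a secreted protein of the endoplasmic reticulum, MVK is mevalonate kinase, and MAT1A makes S-adenosylmethionine in liver. With a large step between the groups such values were frequent, since 2382 of 11751 candidate genes exceeded 0.95, and they describe only which genes moved between the same 6 libraries.

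**Figure D5:**
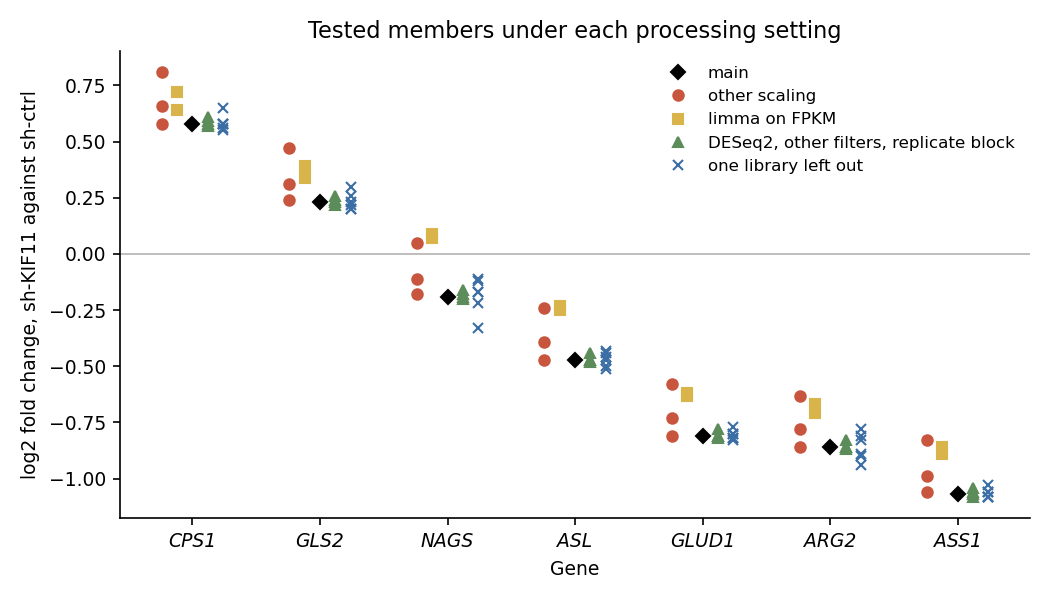
The log2 fold change of sh-KIF11 against sh-ctrl of the 7 tested members under the main setting and 15 others, grouped by kind. CPS1 and GLS2 stayed above 0, and ASL, GLUD1, ARG2 and ASS1 below 0, in all of them, whereas NAGS lay on both sides of 0.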

How the data were processed

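Poly(A) RNA of HepG2 cells was sequenced as 3 stranded libraries of sh-ctrl and 3 of sh-KIF11, whose groups came from the sample labels. The authors deposited raw counts per gene and, in a second table, FPKM values that they had corrected for transcript length and depth. The submitters' processing notes name bcl2fastq 1.8.4, Trimmomatic, HISAT2 2.1.0, Cufflinks 2.2.1, HTSeq 0.9.1 and DESeq, with the build GRCh38. Columns of the knockdown libraries are headed only as shRNA, and the labels list no other knockdown. Counts were fitted in R 4.3.3 with edgeR 4.0.16 (TMM factors, filterByExpr, quasi-likelihood test, group as the only term), which kept 12369 of 20030 genes, with Benjamini-Hochberg adjusted p-values under 0.05 taken as called. The deposited counts ranged from 18167773 to 19583282 per library, and the biological coefficient of variation was 4.87%. Ratios were tested with exact permutation tests (scipy 1.17.1).

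The members and lists were chosen with earlier results of these data known. Named were all 9 members, KIF11, GLUL, CAD, OAT and GLUD2, and genes of the functional lists with an adjusted p under 0.05, an absolute log2 fold change of at least 1 and a mean of at least 1 CPM, besides the 3 genes closest to the called member with the largest change. Some genes that meet this rule, and 1 of the 5 ratios, are not reported here. Gene positions came from GENCODE on GRCh38 and start sites from RefSeq on GRCh38.p14. Alternatives were RLE, upper-quartile and library-total scaling, other low-count filters, DESeq2 1.42.0, limma 3.58.1 on log2(FPKM + 1) and log2(FPKM + 0.1), the replicate number as a block, and each library left out. The fit was tested on simulated data drawn from these libraries, where edgeR called 193 of 198 genes changed by a factor of 2 and 6 others among 12334 genes. Unlike in the real data, few genes were changed there, and equally up and down. The simulation therefore does not bear on the choice of scaling.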

Additional observations from a re-analysis of the deposited data

How the results depend on the processing

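Over 15 alternatives CPS1, ASS1, ASL, ARG2 and GLUD1 kept their direction and passed the threshold each time. Their log2 fold changes ranged from 0.55 to 0.81 for CPS1, -1.08 to -0.83 for ASS1, -0.51 to -0.23 for ASL, -0.94 to -0.63 for ARG2 and -0.83 to -0.58 for GLUD1. GLS2 stayed above 0 (0.20 to 0.47) but lost its call without sh-KIF11 replicate 2 or replicate 3. NAGS turned positive with library totals alone (0.05), with limma on log2(FPKM + 1) (0.07) and with limma on log2(FPKM + 0.1) (0.09), and ranged from -0.33 to -0.11 when a library was left out. Members called ranged from 5 to 6, called genes of the functional lists from 49 to 58 and all called genes from 7975 to 8994. With the replicate number as a replicate block 6 members, 55 genes of the lists and 8607 genes in all were called. Same-numbered libraries deviated from their group means with correlations of 0.03, -0.02 and -0.00, so no pairing by number was seen. The labels do not say whether same-numbered libraries were prepared together. The log2 ratios of GLS2 to GLUL, CPS1 to CAD and NAGS to CPS1 kept their direction under the 7 alternatives run for ratios, which were FPKM in place of counts and each library left out. The difference for ARG2 to ARG1 ranged from 0.52 to 2.71 and rested on the 0.5 added to 0 counts of ARG1, so no direction is read from it. GLUD2 lost its call without sh-ctrl replicate 3 (-0.88, adjusted p = 0.0788) and without sh-KIF11 replicate 2 (-0.77, adjusted p = 0.108), and CAD had either sign. Depth limits ARG1 and OTC, for which the fit without a filter gave adjusted p = 0.253 and 0.362 by edgeR.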
